A study of Homo sapiens with 9 samples.

Results

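The protein-folding machinery of the endoplasmic reticulum (ER) and the unfolded protein response were followed through 40 human genes, chosen by symbol for roles in ER folding, ER-associated degradation and the IRE1/XBP1 and ATF6 signalling arms. Each of the 40 symbols matched 1 of the 60683 Ensembl gene identifiers counted, and all 40 were abundant enough to be tested in each of the 3 comparisons. They fall into 6 roles. The Hsp70/Hsp90 chaperone system holds 11 genes, the lectin chaperones 2, the disulfide enzymes 6, the sensors with their transcription factors and activating proteases 8, ER-associated degradation 11 and the translocon 2. The cells were HEK293T, a readily transfected line derived from human embryonic kidney, with the SV40 large T antigen. RNA was sequenced from unmodified parental cells (3 libraries) and from clone 15 and clone 37 (3 libraries each). Each clone grew from a single sorted cell after the piggyBac transposon had placed a pair of Myc-tagged luciferase reporters in the genome, one with a run of 60 CAG repeats before NanoLuc and one without repeats (0 CAG) before firefly luciferase. Clone 15 was picked for low and clone 37 for high expression of both reporters. All groups were grown in DMEM with fetal bovine serum and penicillin/streptomycin, and the labels name no compound or stress treatment for any of them. The parental line is the source of the clones, and the labels name only the clones as selected after sorting for reporter expression, so each contrast with parental joins the reporters, the cloning step and the particular cell that founded the clone, and each expression level is represented by 1 clone.

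Secretory and membrane proteins enter the ER through the SEC61 channel and fold with the help of BiP (HSPA5) and its J-domain partners, of the lectins calnexin and calreticulin, and of protein disulfide isomerases recharged by the ERO1 oxidases. Proteins that fail to fold are trimmed by EDEM mannosidases, passed to the HRD1 (SYVN1) and SEL1L ubiquitin ligase complex and degraded by the proteasome in the cytosol. When unfolded protein accumulates, IRE1 (ERN1) splices the XBP1 messenger RNA into its active form, ATF6 moves to the Golgi where the proteases encoded by MBTPS1 and MBTPS2 release it, and both factors raise the transcription of chaperone and degradation genes. Counts per gene do not separate spliced from unspliced XBP1, nor cleaved from whole ATF6, so the values below are messenger levels and not the activity of either arm.

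Both factors are known to act through the ER stress response element (ERSE, the letters CCAAT, then any 9 bases, then CCACG) and its shorter relative ERSE-II (ATTGG, then any 1 base, then CCACG). These letters were searched on both strands of the 250 bases before each RefSeq gene start (GRCh38.p14). A RefSeq promoter was at hand for 37 members. ERSE stood in 7 of them (18.9%), against 22 of all 27305 RefSeq promoters (0.0806%), and ERSE-II in 3 (8.11%), against 14 of all promoters (0.0513%). Another set of letters, the core TGACGTGG of the unfolded protein response element, was found in 2 members (5.41%) and in 182 of all promoters (0.667%). This core ends in the same CGTGG that an ERSE on the other strand starts with, and in HYOU1 its centre lay 4 bases from that of an ERSE-II. ERSE was present in HSPA5, XBP1, CALR, CANX, CRELD2, ERO1B and, at 2 places, HSP90B1. ERSE-II was present in HERPUD1, SDF2L1 and, at 2 places, HYOU1, and the core in HYOU1 and DNAJC10. The members were chosen for roles in the response that acts through these elements. A higher share than in all promoters therefore follows from the choice and is no independent result. A match is a description of the letters and says nothing about binding in these cells.

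The windows around the match are shown for 6 members because they differ in how they behaved in the clones: HSPA5 and XBP1 are the classical targets, HERPUD1 and ERO1B were lower in both clones, and CALR and SDF2L1 were not. Each runs 5′ to 3′ on the strand of its gene, and capitals mark the fixed letters of the element or of its reverse complement. The positions are, in the same order, chr9:125241361-125241440 (minus strand), chr22:28800598-28800627 (minus strand), chr16:56932015-56932044 (plus strand), chr1:236282129-236282208 (minus strand), chr19:12938359-12938438 (plus strand) and chr22:21642079-21642158 (plus strand) in GRCh38.p14.
HSPA5: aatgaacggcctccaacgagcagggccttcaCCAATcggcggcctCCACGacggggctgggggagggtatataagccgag
XBP1: cgctggCCAATcgcggagggCCACGaccgt
HERPUD1: ccggacgccgATTGGgCCACGttgggagag
ERO1B: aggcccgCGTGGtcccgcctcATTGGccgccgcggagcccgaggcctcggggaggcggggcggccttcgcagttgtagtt
CALR: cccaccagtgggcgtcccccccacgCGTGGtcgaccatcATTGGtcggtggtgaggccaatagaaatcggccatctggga
SDF2L1: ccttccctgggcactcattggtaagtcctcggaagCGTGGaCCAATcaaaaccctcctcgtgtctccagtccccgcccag

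In HSPA5, XBP1 and HERPUD1 the element reads on the strand of the gene, and in ERO1B, CALR and SDF2L1 on the opposite strand. In the fits described below, of the 10 members with an ERSE or ERSE-II, 6 were called lower and 2 higher in clone 37, where 27.3% of all genes tested were called lower and 26.7% higher. In clone 15 the same 10 gave 5 lower and 2 higher, where 26.2% of all genes were lower and 25.1% higher. Among the other 27 members with a promoter at hand, 16 were lower and 1 higher in clone 37, whereas clone 15 had 13 lower and 9 higher.

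The libraries held between 10334090 and 38093340 counts assigned to genes. Clone 15 was read with 100-base pairs and held 18654063 to 38093340 counts, whereas parental and clone 37 were read with 75-base pairs and held 10334090 to 13902872, so in every contrast with clone 15 the clone and the length of its reads cannot be told apart. Parental replicate 2 stood apart: counts differed between it and the other parental libraries with a chi-square per degree of freedom of 10.2 and 10.3, against 1.88 between those 2, and it had the largest share of multimapping reads (13.95%). Clone 15 replicate 2 differed from the others of its group with 9.05 and 7.43, against 4.24 between those. Leaving it out lowered the biological coefficient of variation, the typical spread between replicates beyond counting error, from 6.3% to 4.21% between the clones, and the members then gave 22 lower and 8 higher in that comparison (31.2% and 29% of all genes) and 18 lower and 12 higher in clone 15 against parental (23.6% and 24%). Parental replicate 2 also had the highest summed level of the 40 members, 7255 CPM (read counts scaled to each library's total over genes), against 6526 and 6502 CPM in parental replicates 1 and 3. Of the 6 genes HEK293T cells are known to express, all 6 were detected in every group, but their summed level moved with the clones, from 1250.3 to 1540 CPM in parental to 4020.4 to 4175 CPM in clone 15 and 773 to 841 CPM in clone 37. The neurofilament gene NEFM made up most of this, with 475 to 633 CPM in parental, 2646 to 2810.2 CPM in clone 15 and 135 to 139 CPM in clone 37. Of 6 kidney genes (NPHS1 of the glomerulus, the others of the tubule), UMOD, AQP2 and SLC12A1 were at 0 in all 9 libraries. SLC34A1 and NPHS1 reached at most 0.365 CPM. LRP2 had 57.2 to 65.04 CPM in parental, 52.3 to 55.7 CPM in clone 15 and 26.6 to 30.8 CPM in clone 37. It was called lower in both clones. Leukocyte markers summed to at most 0.370 CPM. Fibroblast markers (5 genes, of which 4 were detected in parental and in clone 37 and 5 in clone 15) summed to 58.5, 77.7 and 173 CPM in clone 15, 38.3 to 41.8 CPM in parental and 21.1 to 21.9 CPM in clone 37. COL1A2 was at 0 in the parental and clone 37 libraries and at 5.59, 12.2 and 56.8 CPM in clone 15. The part of these markers in the member values was not tested, and in bulk RNA fewer cells of a type and less RNA per cell cannot be told apart.

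In parental cells the members spanned a wide range. Per kilobase of each gene's longest annotated transcript, calnexin (CANX) had 289 ± 25.6 CPM per kilobase (mean ± SD, n = 3), the ER member of the Hsp90 family, GRP94 (HSP90B1), 233 ± 16.2 and calreticulin (CALR) 206 ± 14.4. The disulfide isomerase P4HB at 128 ± 7.33 and HSPA5 at 125 ± 16.3 CPM per kilobase followed, and lay within each other's SD. XBP1 had 73.8 ± 6.52 CPM per kilobase. The lowest were the BiP co-chaperone DNAJB9 with 6.87 ± 1.23, ERN1 with 4.93 ± 0.281 and DERL3, a channel component of the degradation pathway, with 3.67 ± 0.447 CPM per kilobase.

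In clone 37, the high expresser, more members were lower than higher relative to parental cells. Of the 40 members, 23 were called lower and 3 higher (edgeR quasi-likelihood test, adjusted p below 0.05 with Benjamini-Hochberg adjustment over all 16501 genes tested), and 14 were not called. The 26 called members compare with 54% of all genes called in either direction. All 40 members are protein-coding. In a separate fit of protein-coding genes only, 8102 of 13152 genes were called, 4329 lower and 3773 higher. Lower members were 57.5% of the set, where 27.3% of all genes tested were called lower, and higher members were 7.5%, where 26.7% of all genes were called higher. The largest decreases were those of CREB3L2, PDIA4 and XBP1, and these were the only 3 members called with at least a 2-fold change (7.5% of the members, 9% of all genes tested). As a median, the members had a log2 fold change of -0.28, beside 0.024 over all genes tested. The libraries of the clone and the parental cells did not overlap for 24 members in the lower direction (60% of the members, 28.6% of all genes) and for 5 in the higher direction (12.5%, 33.1% of all genes). The 14 members not called had log2 fold changes between -0.17 and 0.18. Without parental replicate 2 the counts became 24 lower and 7 higher with a median of -0.20, beside 30.5% and 29% of all genes called lower and higher in that fit. Without parental replicate 1 or 3, or clone 37 replicate 1 or 3, 1 member was called higher. Beside it, in the same order, 3990 of 17089, 3752 of 16701, 3679 of 17121 and 3326 of 16783 genes were called higher.

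In clone 15, the low expresser, 20 members were lower, 11 higher and 9 not called, in a test of 17703 genes of which 51.4% were called. In the fit of protein-coding genes only, 3916 of 13514 genes were called lower and 4109 higher. Lower members were 50% of the set against 26.2% of all genes tested, and higher members 27.5% against 25.1%. HERPUD1 and DNAJB9 fell by at least 2-fold (5.0% of the members, 10.1% of all genes tested) and CALR rose most. The median log2 fold change was -0.22, beside 0.015 over all genes. Groups did not overlap for 20 members in the lower direction (50%, against 28% of all genes) and 12 in the higher (30%, against 31.5%). The 9 uncalled members lay between -0.19 and 0.28. Without parental replicate 2 the counts were 18 lower and 16 higher and the median -0.11, beside 24.6% and 23.3% of all genes called lower and higher. Both contrasts use the same 3 parental libraries, so their values for one gene are not independent.

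**Figure D1:**
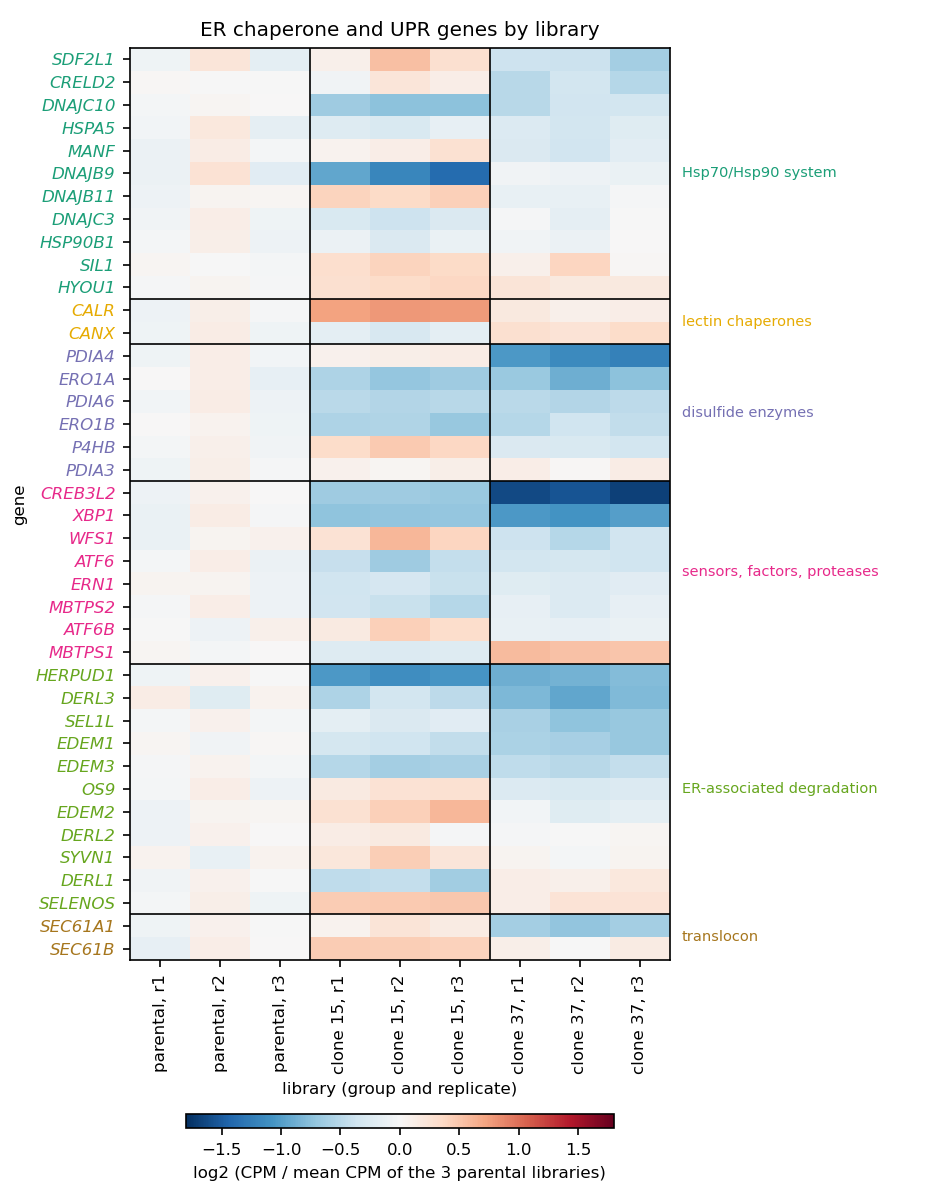
Colour gives log2 of each library's CPM over the mean of the 3 parental libraries, for the 40 genes (rows, grouped by role) in the 9 libraries (columns; r1 to r3 are the replicates). XBP1, CREB3L2, HERPUD1, ERO1A and EDEM1 are blue in all 6 clone libraries, PDIA4 in the 3 of clone 37 and DNAJB9 most deeply in the 3 of clone 15, whereas CALR is red in the 3 of clone 15.

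**Figure D2:**
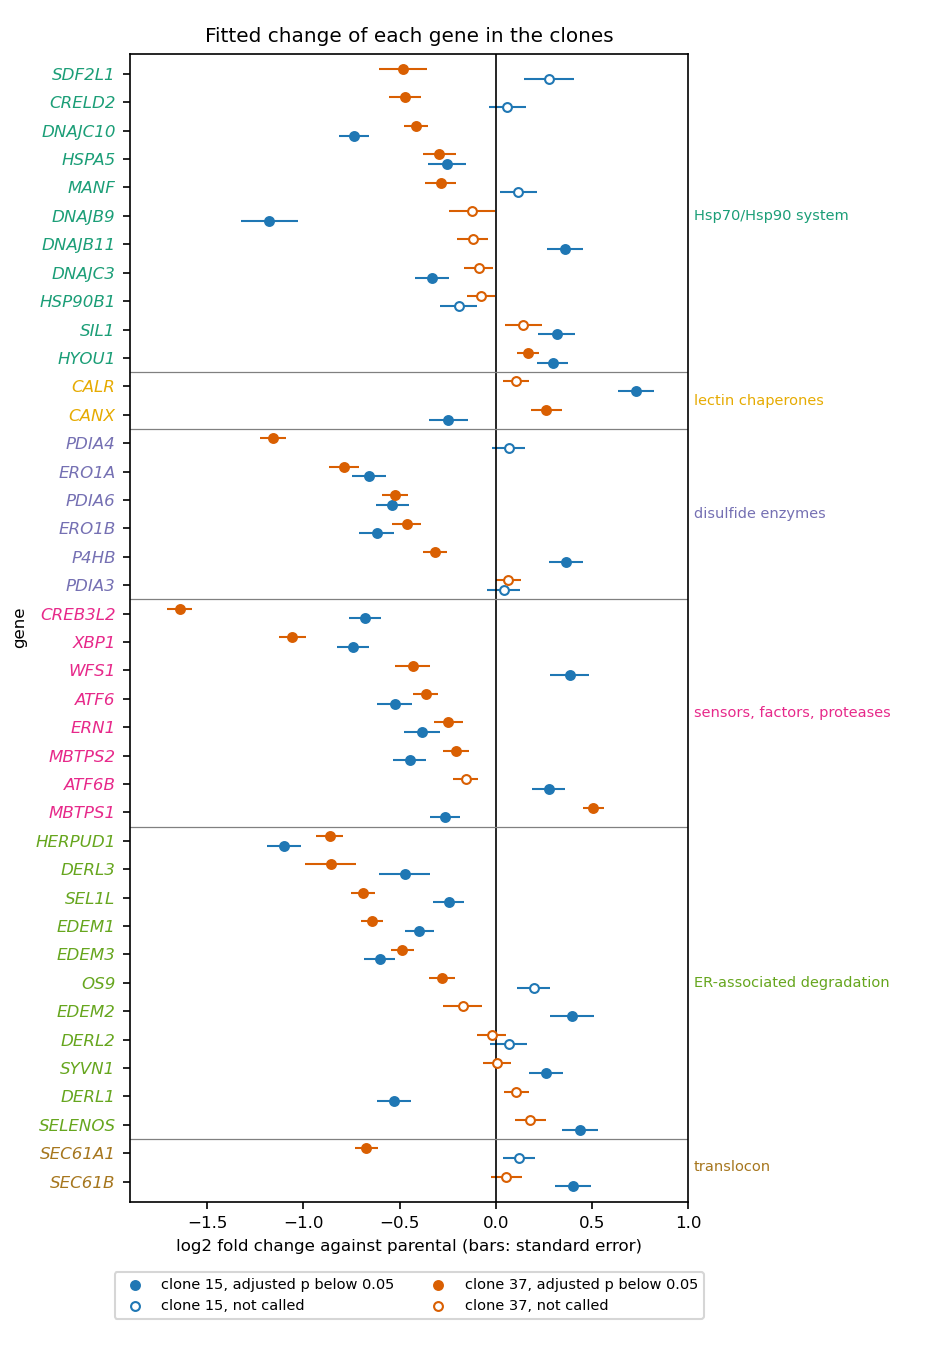
Fitted log2 fold change against parental (x axis; bars are standard errors) for each gene in clone 15 (blue) and clone 37 (orange), with filled points for adjusted p below 0.05. Most filled points lie left of 0; P4HB, WFS1, CANX and MBTPS1 have filled points on opposite sides.

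Among the sensors, factors and proteases, 6 of 8 were lower and 1 higher in clone 37, and 6 lower and 2 higher in clone 15. The shares of all genes to read beside this and the other counts by role are 27.3% lower and 26.7% higher in clone 37, and 26.2% lower and 25.1% higher in clone 15. The factor genes that the IRE1 and ATF6 arms work through were lower in both clones. XBP1 (chromosome 22, 28794555 to 28800597 in GRCh38) had 147, 175 and 159 CPM in the parental libraries, 97.4, 98.2 and 98.7 CPM in clone 15 and 78.3, 76.2 and 80.9 CPM in clone 37. The 3 groups did not overlap, and clone 37 was the lowest. The log2 fold change was -1.06 (standard error 0.0699, adjusted p 1.43e-09) in clone 37 and -0.74 (standard error 0.085, adjusted p 7.54e-08) in clone 15. ATF6 had 118, 131 and 113 CPM in the parental libraries, 90.5, 77.03 and 89.3 CPM in clone 15 and 95.5, 96.96 and 93.7 CPM in clone 37, again with every clone library below every parental one. Its log2 fold changes were -0.36 (standard error 0.066, adjusted p 0.000149) in clone 37 and -0.53 (standard error 0.0901, adjusted p 2.93e-05) in clone 15. ERN1, which encodes the IRE1 kinase and nuclease itself, was lower too, with log2 fold changes of -0.25 (standard error 0.077, adjusted p 0.0115) in clone 37 and -0.38 (standard error 0.093, adjusted p 0.00121) in clone 15. The clone 37 call of ERN1 was lost without clone 37 replicate 2, with a log2 fold change of -0.23.

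CREB3L2 (chromosome 7, 137874979 to 138002067), which encodes an ATF6-like membrane-bound factor of the ER known for raising secretory capacity, showed the largest decrease of any member. It had 247, 276 and 265 CPM in the parental libraries, 169, 168 and 166 CPM in clone 15 and 85.6, 89.6 and 81.9 CPM in clone 37. Clone 15 lay between parental and clone 37 without touching either. The log2 fold changes were -1.64 (standard error 0.063, adjusted p 1.12e-12) in clone 37 and -0.68 (standard error 0.082, adjusted p 1.77e-07) in clone 15. ATF6B, the ATF6 paralogue, was higher in clone 15 at 0.28 (standard error 0.086, adjusted p 0.00906) and not called in clone 37, where it was called lower in 8 of 18 alternative settings, among them without parental replicate 2 (-0.19). Its clone 15 call was lost without parental replicate 1, with 0.25, and it shares 8.43% of its 75-base words with other annotated genes.

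The proteases that activate ATF6 moved apart in clone 37. MBTPS1 (chromosome 16, 84053761 to 84116906), the site-1 protease, had 203, 194 and 200.5 CPM in the parental libraries, 171, 168 and 170.04 CPM in clone 15 and 296, 286 and 283 CPM in clone 37. Clone 37 was the highest and clone 15 the lowest group, with no overlap. The log2 fold changes were 0.51 (standard error 0.055, adjusted p 6.35e-07) in clone 37 and -0.26 (standard error 0.076, adjusted p 0.00536) in clone 15. MBTPS2 (chromosome X, 21839636 to 21885424), the site-2 protease that cuts after it, had 105, 116 and 99.96 CPM in the parental libraries, 84.6, 81.2 and 74.8 CPM in clone 15 and 96.2, 90.1 and 96.99 CPM in clone 37. It was lower in both clones, with log2 fold changes of -0.21 (standard error 0.068, adjusted p 0.0162) in clone 37 and -0.45 (standard error 0.086, adjusted p 0.000113) in clone 15, and the clone 37 call was lost without clone 37 replicate 2 (-0.17) and the value was -0.13 without parental replicate 2. WFS1, the ER membrane protein wolframin, had 26.6, 29.99 and 30.5 CPM in the parental libraries, 34.8, 44.1 and 37.95 CPM in clone 15 and 22.6, 20.3 and 22.99 CPM in clone 37. Clone 37 was below parental at -0.43 (standard error 0.091, adjusted p 0.000642) and clone 15 above it at 0.39 (standard error 0.101, adjusted p 0.00256).

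**Figure D3:**
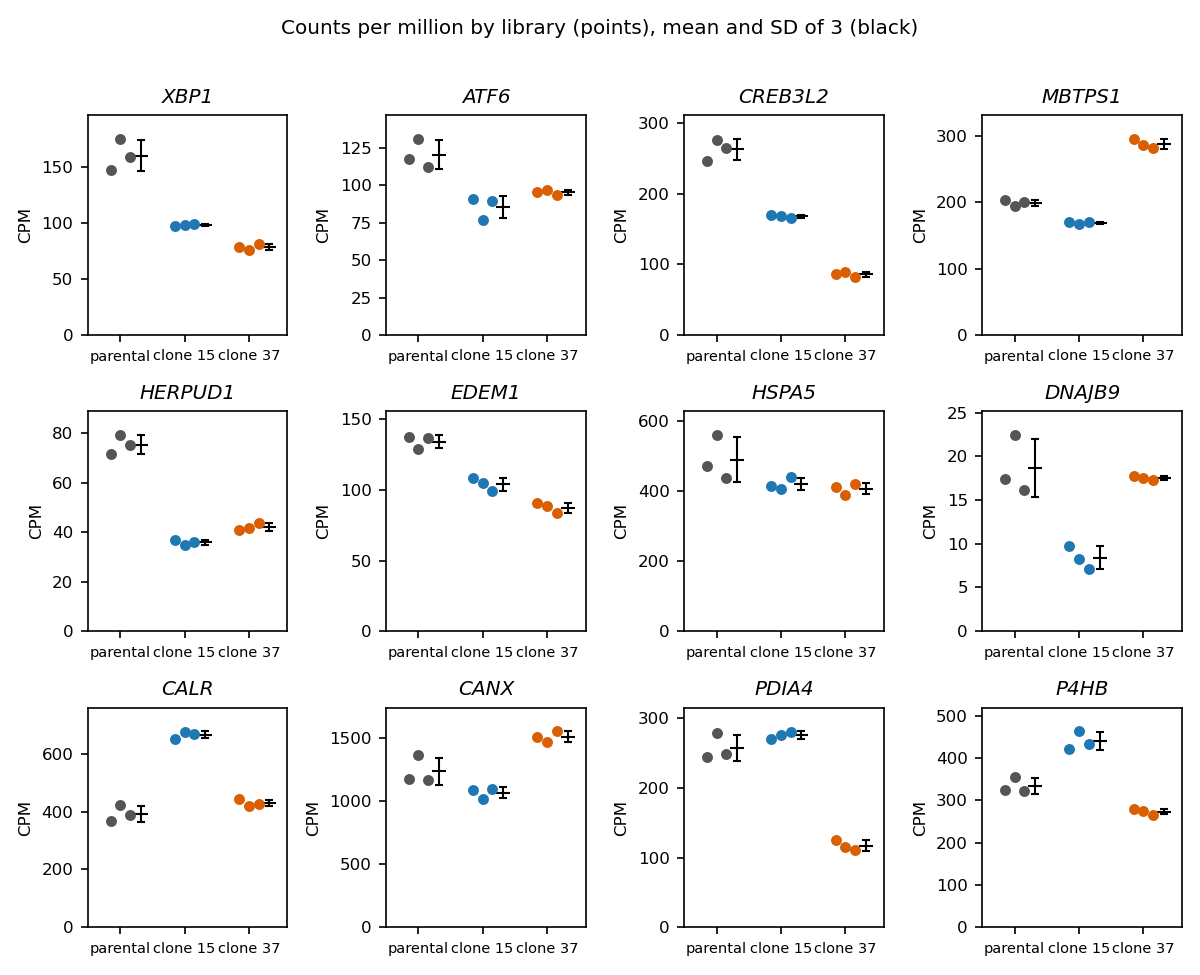
CPM in each library (points; y axes start at 0) for 12 members, with the mean and SD of the 3 libraries of each group in black. XBP1, ATF6, CREB3L2, HERPUD1 and EDEM1 sit below the parental libraries in all 6 clone libraries, MBTPS1 and CANX sit above them in clone 37 and below them in clone 15, and DNAJB9 and CALR depart from parental in clone 15.

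In ER-associated degradation, 6 of 11 members were lower and 0 higher in clone 37 by edgeR, where 1 was higher at an unadjusted p under 0.05 (SELENOS) and 0 by DESeq2. In clone 15, 6 were lower and 3 higher. HERPUD1 (chromosome 16, 56932048 to 56944863), a membrane protein that assembles the HRD1 complex, had 71.7, 79.3 and 75.3 CPM in the parental libraries, 36.8, 34.9 and 36.1 CPM in clone 15 and 40.9, 41.9 and 43.9 CPM in clone 37. All clone libraries were well below all parental ones, and clone 15 was below clone 37. The log2 fold changes were -0.86 (standard error 0.0695, adjusted p 1.52e-08) in clone 37 and -1.102 (standard error 0.087, adjusted p 1.46e-10) in clone 15. SEL1L, the adaptor that holds the HRD1 ligase to its substrates, had 112, 121 and 111 CPM in the parental libraries, 102, 95.4 and 99.6 CPM in clone 15 and 76.5, 69.1 and 71.4 CPM in clone 37. The log2 fold change was -0.69 (standard error 0.064, adjusted p 9.46e-08) in clone 37 and smaller, -0.24 (standard error 0.081, adjusted p 0.0134), in clone 15. SYVN1, the ligase itself, was not called in clone 37 and was higher in clone 15 at 0.26 (standard error 0.087, adjusted p 0.0142).

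The mannosidase-like genes did not move together. EDEM1 (chromosome 3, 5187646 to 5219957) had 137, 129 and 137 CPM in the parental libraries, 108, 105 and 99.1 CPM in clone 15 and 90.5, 88.5 and 83.5 CPM in clone 37, with no overlap between any 2 groups. Its log2 fold changes were -0.64 (standard error 0.056, adjusted p 4.56e-08) in clone 37 and -0.397 (standard error 0.076, adjusted p 0.000108) in clone 15. EDEM3 had 108, 115 and 107 CPM in the parental libraries, 76.8, 71.8 and 73.2 CPM in clone 15 and 80.4, 77.5 and 82.01 CPM in clone 37. Both clones were below parental, at -0.48 (standard error 0.0605, adjusted p 3.00e-06) in clone 37 and -0.604 (standard error 0.081, adjusted p 8.34e-07) in clone 15. EDEM2, by contrast, was higher in clone 15 at 0.397 (standard error 0.11, adjusted p 0.00475) and not called in clone 37.

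The Derlins, membrane proteins through which substrates leave the ER, also differed among themselves. DERL3 had 14.2, 11.1 and 13.5 CPM in the parental libraries, 8.79, 10.3 and 9.33 CPM in clone 15 and 7.396, 6.77 and 7.45 CPM in clone 37, and had the lowest mean CPM of the members in parental and in clone 37. Its log2 fold changes were -0.86 (standard error 0.13, adjusted p 3.53e-05) in clone 37 and -0.47 (standard error 0.13, adjusted p 0.00468) in clone 15, and the groups did not overlap. DERL1 was lower in clone 15 at -0.53 (standard error 0.088, adjusted p 1.69e-05) and not called in clone 37, with a log2 fold change of 0.11, although it was called higher there without parental replicate 2 (0.16) and with GC and length trends removed (0.19). DERL2 was called in neither clone, but was called higher in clone 15 with GC and length trends removed (0.32). The lectin OS9, which recognises trimmed glycans, was lower in clone 37 at -0.28 (standard error 0.066, adjusted p 0.00163) and not called in clone 15, where it was called higher in 8 of 18 alternative settings, among them without parental replicate 2 (0.29). SELENOS, a selenoprotein of the extraction complex, was higher in clone 15 at 0.44 (standard error 0.094, adjusted p 0.000355) and not called in clone 37, where it was called higher without parental replicate 2 (0.25).

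In the Hsp70/Hsp90 system, 5 of 11 members were lower and 1 higher in clone 37, and 4 lower and 3 higher in clone 15. HSPA5 (chromosome 9, 125234853 to 125241330), the gene of BiP and the usual readout of ER stress, had 472, 560.03 and 436 CPM in the parental libraries, 416, 405 and 441 CPM in clone 15 and 411, 389.8 and 420.2 CPM in clone 37. Clone 37 did not overlap parental, and clone 15 did. The decreases were small, with log2 fold changes of -0.29 (standard error 0.086, adjusted p 0.00959) in clone 37 and -0.25 (standard error 0.101, adjusted p 0.0376) in clone 15. The clone 37 call was lost without clone 37 replicate 2 (-0.25), and the value was -0.17, still called, without parental replicate 2. The clone 15 call was lost without clone 15 replicate 1 or 2 and without parental replicate 2, where the log2 fold change was -0.12. HSP90B1, which encodes GRP94, was called in neither clone, with log2 fold changes of -0.079 in clone 37 and -0.19 in clone 15, but was called lower in clone 15 with unstranded counts (-0.28) and in 1 fit of all 9 libraries (-0.19). Over the 18 alternative settings HSP90B1 ran from -0.27 to -0.010 in clone 37 and from -0.28 to -0.017 in clone 15. Neither messenger was called higher in either clone.

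The J-domain partners of BiP did not move together. DNAJB9 (chromosome 7, 108569568 to 108574850), which encodes ERdj4, a BiP co-chaperone known to hold IRE1 inactive, had 17.4, 22.4 and 16.1 CPM in the parental libraries, 9.74, 8.28 and 7.13 CPM in clone 15 and 17.8, 17.5 and 17.2 CPM in clone 37. Clone 37 lay within the parental range and every clone 15 library lay below it. The log2 fold change was -1.18 (standard error 0.15, adjusted p 7.50e-07) in clone 15 and -0.12 in clone 37, where it was not called. DNAJC10, the disulfide-reducing ERdj5, had 167, 176 and 172 CPM in the parental libraries, 110.2, 103 and 103 CPM in clone 15 and 121, 136 and 137 CPM in clone 37. Clone 37 was below parental at -0.41 (standard error 0.061, adjusted p 1.81e-05), and clone 15 at -0.74 (standard error 0.079, adjusted p 2.71e-08). DNAJB11, the secreted ERdj3, had 29.7, 32.7 and 32.4 CPM in the parental libraries, 41.8, 40.1 and 42.5 CPM in clone 15 and 28.8, 28.8 and 31.2 CPM in clone 37. It was higher in clone 15 at 0.36 (standard error 0.092, adjusted p 0.00207) and overlapped parental in clone 37, and it shares 9.44% of its 75-base words with other annotated genes. DNAJC3 (p58IPK) was lower in clone 15 at -0.33 (standard error 0.089, adjusted p 0.00314) and not called in clone 37, with -0.089.

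The ER-resident SDF2L1, CRELD2 and MANF, known to be induced by the response, were lower in clone 37 than in either other group, with log2 fold changes against clone 15 of -0.76, -0.53 and -0.403 (adjusted p 2.06e-06, 9.82e-06 and 5.09e-05). SDF2L1, a partner of ERdj3, had 17.02, 20.8 and 15.8 CPM in the parental libraries, 19.1, 26.1 and 21.8 CPM in clone 15 and 13.9, 13.7 and 11.7 CPM in clone 37. It was lower in clone 37 at -0.48 (standard error 0.12, adjusted p 0.00323) and not called in clone 15, with 0.28. In clone 15 it was called higher when parental replicate 2 was left out, at 0.43, or clone 15 replicate 1, at 0.403. CRELD2, a secreted disulfide isomerase-like protein, had 30.2, 29.5 and 29.6 CPM in the parental libraries, 28.4, 34.7 and 32.3 CPM in clone 15 and 21.1, 23.7 and 20.9 CPM in clone 37. It was lower in clone 37 at -0.47 (standard error 0.084, adjusted p 0.000132), and clone 15 overlapped parental. MANF, a secreted stress-responsive factor, was lower in clone 37 at -0.29 (standard error 0.083, adjusted p 0.00711), and the call was lost without clone 37 replicate 2 (-0.24). In clone 15 it was not called, but was called higher without parental replicate 2 (0.21). The BiP nucleotide exchange factors were not called lower in either clone. HYOU1 was higher in clone 37 at 0.17 (standard error 0.057, adjusted p 0.0179) and in clone 15 at 0.296 (standard error 0.0801, adjusted p 0.00323), and SIL1 was higher in clone 15 at 0.32 (standard error 0.098, adjusted p 0.00881) and not called in clone 37. The clone 37 call of HYOU1 was lost in 10 of 18 alternative settings, among them without either of parental replicates 1 and 3 or clone 37 replicates 1 and 3 (0.11 at the lowest of these), and the SIL1 call without parental replicate 3 (0.27).

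The lectin chaperones, which hold newly made glycoproteins until they fold, did not move together. Calreticulin, the soluble one, had 367, 421 and 388 CPM in the parental libraries, 651, 675 and 668 CPM in clone 15 and 442, 419 and 427 CPM in clone 37 for CALR (chromosome 19, 12938578 to 12944489). All clone 15 libraries were far above the rest, whereas clone 37 overlapped parental. The log2 fold change was 0.73 (standard error 0.091, adjusted p 3.20e-07) in clone 15, the largest rise of any member, and 0.105 in clone 37, where it was not called. It was called higher there without parental replicate 2, at 0.17. Calnexin, the membrane-bound one, had 1174, 1359 and 1167 CPM in the parental libraries, 1087, 1014 and 1091 CPM in clone 15 and 1505, 1467 and 1550.01 CPM in clone 37 for CANX (chromosome 5, 179678628 to 179730925). It was higher in clone 37 at 0.26 (standard error 0.082, adjusted p 0.0119) and lower in clone 15 at -0.25 (standard error 0.103, adjusted p 0.0484). Both CANX calls were lost when 1 of several libraries was left out. The clone 37 call was lost without clone 37 replicate 1 or 3 or parental replicate 1 or 3 (lowest 0.18), and the clone 15 call without any 1 of its own replicates or without parental replicate 2 (-0.15).

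Disulfide enzymes were the role with the highest share of decreases in clone 37, 5 of 6, with 0 higher by edgeR, by DESeq2 and at an unadjusted p under 0.05. In clone 15, 3 were lower and 1 higher. The ERO1 oxidases were lower in both clones. ERO1A, the hypoxia-responsive form, had 208, 226 and 187 CPM in the parental libraries, 141, 127 and 133 CPM in clone 15 and 129.8, 113 and 124 CPM in clone 37. Its log2 fold changes were -0.79 (standard error 0.077, adjusted p 4.70e-07) in clone 37 and -0.66 (standard error 0.089, adjusted p 8.90e-07) in clone 15. ERO1B, the form known as a target of the unfolded protein response, had 54.5, 56.5 and 51.1 CPM in the parental libraries, 36.9, 37.2 and 33.7 CPM in clone 15 and 37.9, 42.1 and 39.8 CPM in clone 37. Its log2 fold changes were -0.46 (standard error 0.073, adjusted p 3.89e-05) and -0.62 (standard error 0.0901, adjusted p 2.88e-06) in clones 37 and 15, and no clone library reached the parental range for either oxidase.

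The isomerases themselves were split. PDIA6 had 234, 268 and 228 CPM in the parental libraries, 174, 169.6 and 172 CPM in clone 15 and 174, 168 and 176 CPM in clone 37. Both clones were lower, at -0.52 (standard error 0.068, adjusted p 5.04e-06) in clone 37 and -0.54 (standard error 0.087, adjusted p 1.17e-05) in clone 15. PDIA4 (chromosome 7, 149003062 to 149028641), the gene of ERp72, had 244, 278 and 248 CPM in the parental libraries, 269.8, 276 and 281 CPM in clone 15 and 126, 116 and 111 CPM in clone 37. Clone 37 was far below the other groups, at -1.16 (standard error 0.069, adjusted p 4.29e-10), and clone 15 overlapped parental, at 0.068, and was called higher without parental replicate 2, at 0.15. P4HB, the founding protein disulfide isomerase, had 326, 356 and 321 CPM in the parental libraries, 422, 463 and 434 CPM in clone 15 and 279, 276 and 266 CPM in clone 37. It was lower in clone 37 at -0.32 (standard error 0.062, adjusted p 0.000352) and higher in clone 15 at 0.36 (standard error 0.088, adjusted p 0.001199), without overlap in either direction. PDIA3, the isomerase that works with the lectin chaperones, was called in neither clone, with 0.064 and 0.041 in clones 37 and 15, but was called higher in clone 37 without parental replicate 2 (0.13) and in clone 15 with GC and length trends removed (0.18). PDIA3 shares 11.7% of its 75-base words with other annotated genes, chiefly its pseudogene PDIA3P1, and its counts are uncertain to that extent.

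The translocon genes moved separately. SEC61A1, the channel-forming subunit, had 236, 261 and 248 CPM in the parental libraries, 259.9, 292 and 276 CPM in clone 15 and 162, 152 and 162 CPM in clone 37. Its level in clone 37 was lower, at -0.67 (standard error 0.062, adjusted p 7.72e-08). In clone 15 it was not called, with 0.12, but was called higher without parental replicate 2 (0.18) and with protein-coding genes only (0.17). SEC61B, a small subunit of the same complex, had 37.01, 44.4 and 41.1 CPM in the parental libraries, 56.02, 55.3 and 54.3 CPM in clone 15 and 43.8, 40.5 and 45.4 CPM in clone 37. It was higher in clone 15 at 0.4005 (standard error 0.092, adjusted p 0.000745) and not called in clone 37, with 0.055.

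Clone 37 was also compared with clone 15 directly, which asks how the high expresser differs from the low one. Of the 40 members, 21 were lower in clone 37, 9 higher and 10 not called by edgeR (52.5% lower against 29% of all 17712 genes tested, 22.5% higher against 28.7%, with 57.7% of all genes called in either direction), with a median log2 fold change of -0.21 beside -0.0015 over all genes. PDIA4 and CREB3L2 differed most in the lower direction, with log2 fold changes of -1.23 (standard error 0.057, adjusted p 1.77e-16) and -0.96 (standard error 0.057, adjusted p 2.80e-14). WFS1 at -0.81, SEC61A1 at -0.79, SDF2L1 at -0.76, P4HB at -0.68 and CALR at -0.62 followed, and XBP1 differed by -0.32 (standard error 0.059, adjusted p 3.83e-05). DNAJB9 at 1.05 (standard error 0.12, adjusted p 2.15e-08), MBTPS1 at 0.77, DERL1 at 0.63 and CANX at 0.51 were higher in clone 37, although relative to their chromosome neighbours MBTPS1 (-0.032) and DERL1 (0.015) were not called. Groups did not overlap for 21 members in the lower (52.5%, against 32.1% of all genes) and 13 in the higher direction (32.5%, against 31.5%). At least a 2-fold called difference was found for 2 members, PDIA4 and DNAJB9 (5.0% of the members, 11.9% of all genes). HSPA5 was not called, at -0.042 (standard error 0.054, adjusted p 0.528), nor was HSP90B1, at 0.11 (standard error 0.055, adjusted p 0.0862), although the HSP90B1 libraries of the clones did not overlap and it was called higher with unstranded counts (0.16) and with a replicate block (0.11). By role, 7 of 11 degradation genes were lower in clone 37 and 2 higher, 5 of 11 genes of the Hsp70/Hsp90 system lower and 3 higher, and 4 of 8 sensors, factors and proteases lower and 3 higher, beside 29% and 28.7% of all genes. Of the disulfide enzymes 2 of 6 were lower and 4 not called, 1 lectin chaperone was lower and 1 higher, and both translocon genes were lower. In the fit of protein-coding genes only, 4399 of 13462 genes were called lower and 4196 higher between the clones. Clone 37 against clone 15 sets 75-base against 100-base reads, and the part of read length was not tested.

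Each member was then set beside the 100 tested genes nearest to it on its chromosome, to see whether it moved with its surroundings. Copy number was not measured, and its part in these values was not tested. Across the 40 members, the log2 fold change and the neighbours' median had a Pearson r of 0.77 in clone 37 and 0.788 in clone 15, given as a description since members on one chromosome share neighbours. MBTPS1 is an example of a gene that moved with its surroundings: its neighbours had a median of 0.65 in clone 37 and -0.21 in clone 15. DERL1 in clone 15 (-0.53 for its neighbours, -0.53 for the gene) is another. CREB3L2 and PDIA4, both on the long arm of chromosome 7, lay among genes with medians of -0.87 and -0.94 in clone 37, compared with log2 fold changes of -1.64 and -1.16 for the genes themselves.

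Measured against their neighbours, 25 members were called lower and 1, DNAJC3, higher in clone 37, where 22.8% of all genes were lower and 20.2% higher on this scale. In clone 15, 17 were lower and 2 higher (CALR and SEC61B), beside 22.3% and 19.9% of all genes. HERPUD1 departed most from its surroundings, with a difference on the log2 scale of -1.05 in clone 37 and -0.72 in clone 15. The difference for XBP1 was -0.84 in clone 37 and -0.64 in clone 15. HSPA5, whose neighbours had medians of 0.19 and 0.18 in clones 37 and 15, had differences of -0.48 and -0.44. ERO1A, ERO1B, EDEM1, EDEM3, SEL1L, DERL2, DERL3, ERN1, MBTPS2, CREB3L2 and HSP90B1 were also called lower than their neighbours in clone 37 and in clone 15. On this scale CANX, CALR and MBTPS1 in clone 37 turned from above to below 0, CALR and MBTPS1 as calls, at -0.15, -0.202 and -0.14. In clone 15 P4HB, EDEM2, SYVN1 and ATF6B turned from above to below 0 without a call, at -0.0297, -0.058, -0.12 and -0.028. In clone 37 PDIA6, ATF6, WFS1, DNAJC10, CANX and HYOU1 were no longer called. In clone 15 PDIA6, DNAJC10, DNAJC3, DERL1, MBTPS1, HYOU1, SIL1, SELENOS, DNAJB11 and WFS1 were no longer called either. Between the clones, 17 members were lower and 6 higher relative to their neighbours, beside 25.3% and 25.5% of all genes. There the calls of DERL1, DNAJB11 (-0.049), SYVN1 (-0.016), HYOU1 (-0.036), SELENOS (-0.15) and DERL3 (-0.25) were lost, MBTPS1, MBTPS2 (-0.011) and SEL1L (0.0038) turned sign without a call, and HERPUD1 turned from higher to lower as a call (-0.33).

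**Figure D4:**
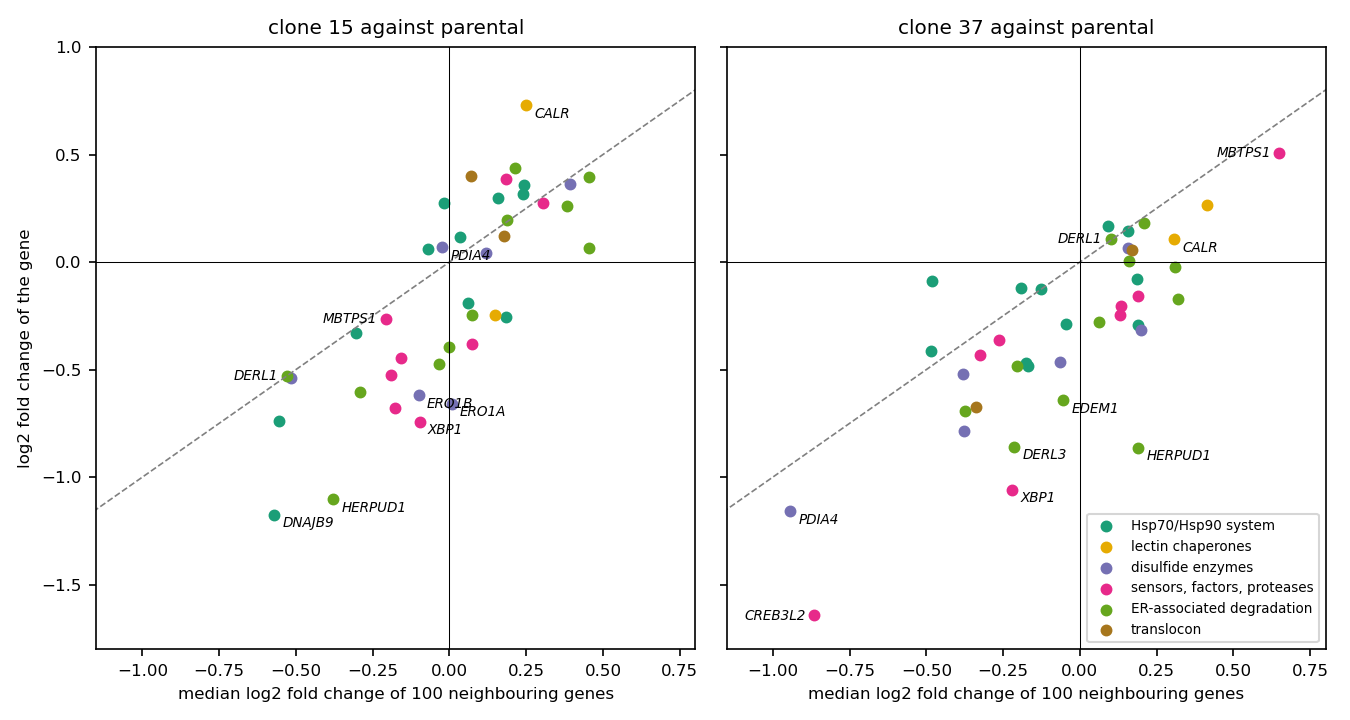
Each point is 1 member in clone 15 (left) or clone 37 (right); the x axis is the median log2 fold change of the 100 nearest tested genes on its chromosome, the y axis its own log2 fold change, and the dashed line marks equality. In clone 37 most members lie below the line, HERPUD1 and XBP1 far below it, and PDIA4 and MBTPS1 lie near it at either end.

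Base composition moved with direction in clone 15 and between the clones. The median GC content of the 11 higher members was 55.16% and of the 20 lower members 41.52%, beside 52.92% and 43.76% for all genes called higher and lower. In clone 37 the medians were 50.94% for the 3 higher and 47.93% for the 23 lower members, beside 49.02% and 47.12% for all genes. Between the clones, the 9 members higher in clone 37 had a median of 41.32% and the 21 lower 53.84%, beside 44.05% and 51.73% for all genes. With trends over GC content and length removed, clone 15 had 15 lower and 9 higher members, beside 22.9% and 27.9% of all genes. Clone 37 had 22 lower and 4 higher, beside 27% and 27.3%. Between the clones 22 were lower and 7 higher, beside 31.5% and 26.7%, and the calls of DNAJC3 (0.066), ATF6 (0.031), HYOU1 (-0.023) and MBTPS2 (-0.0302) were lost there. In clone 37 the calls of ERN1 (-0.17) and MBTPS2 (-0.15) were lost. The clone 15 calls of HSPA5, CANX, SEL1L, MBTPS2, DNAJC3, EDEM2, SEC61B, SIL1 and ATF6B were lost, and SEL1L turned to 0.055. XBP1 (-0.63), HERPUD1 (-1.11), DNAJB9 (-1.004) and CALR (0.57) stayed called in clone 15. Calls gained with these trends removed were DERL1 (higher) and ATF6B (lower) in clone 37, PDIA3 and DERL2 (higher) in clone 15 and, between the clones, ERO1A and DERL2 (lower) and ERN1 (higher). With the counts of both strands, the clone 15 calls of HYOU1 (0.23), SIL1 (0.27), ATF6B (0.22), SYVN1 (0.22) and DERL3 (-0.35) and the clone 37 calls of CANX (0.22), HYOU1 (0.14) and RETREG1 (-0.304) were lost.

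Other ER genes outside the 40 were read through 7 lists of related function, whose counts stand beside the shares of all genes given above (27.3% lower and 26.7% higher in clone 37, 26.2% and 25.1% in clone 15). The PERK/ATF4 arm, the branch of the unfolded protein response that is shared with amino acid and other stresses, had 13 of 14 genes lower and 1 higher in clone 37 (median log2 fold change -1.07), and 13 lower and 0 higher in clone 15 (median -0.66). The 0 was the same by DESeq2 and at an unadjusted p under 0.05. CHAC1, a glutathione-degrading enzyme, had 31.6 ± 3.93 CPM in parental, 17.04 ± 3.37 CPM in clone 15 and 4.15 ± 0.348 CPM in clone 37 (mean ± SD, n = 3), and its log2 fold change in clone 37 was -2.96 (standard error 0.13, adjusted p 7.65e-12). DDIT4, an inhibitor of mTORC1, had 287 ± 27.4 CPM in parental, 69.003 ± 6.21 CPM in clone 15 and 49.2 ± 8.59 CPM in clone 37, with -2.58 (standard error 0.13, adjusted p 5.55e-07) in clone 37 and -2.09 (standard error 0.095, adjusted p 4.07e-15) in clone 15. NUPR1, a stress-induced nuclear protein, was -2.801 (standard error 0.19, adjusted p 1.05e-11) in clone 15. ASNS, also on this list, shares 80.7% of its 75-base words with another gene model and is uncertain.

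Further folding factors gave 11 lower and 2 higher of 20 tested in clone 37, and 10 lower and 3 higher of 21 in clone 15. HSPA13, a further Hsp70 of the ER, had 123 ± 10.8 CPM in parental, 68.3 ± 1.36 CPM in clone 15 and 79.1 ± 0.506 CPM in clone 37, with log2 fold changes of -0.66 (standard error 0.069, adjusted p 3.53e-07) in clone 37 and -0.88 (standard error 0.086, adjusted p 6.44e-09) in clone 15. The collagen-folding isomerase FKBP14 was -1.11 (standard error 0.096, adjusted p 7.55e-10) in clone 15, and the calnexin relative CLGN was 0.58 (standard error 0.085, adjusted p 1.82e-05) in clone 37, a call lost relative to its neighbours (0.21). Of the further degradation genes, 4 of 18 were lower and 7 higher in clone 37, and 7 lower and 7 higher in clone 15. UBE2J2, a ubiquitin-conjugating enzyme of the ER membrane, was higher in both clones, at 0.55 (standard error 0.0703, adjusted p 4.14e-06) in clone 37 and 0.91 (standard error 0.089, adjusted p 6.80e-09) in clone 15. TMUB1 was -1.53 (standard error 0.085, adjusted p 1.27e-10) in clone 37, and UBXN4, which recruits the p97 ATPase, was -0.89 (standard error 0.0802, adjusted p 1.34e-09) in clone 15. Both stayed called over the 18 alternative settings, at -1.67 to -0.63 for TMUB1 and -0.95 to -0.425 for UBXN4.

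Translocation and signal peptide genes gave 7 of 17 lower and 5 higher in clone 37, and 6 lower and 4 higher in clone 15. Subunits of the translocon-associated TRAP complex went both ways. In clone 37 SSR4 was lower at -0.68 (standard error 0.063, adjusted p 8.89e-08) and SSR3 at -0.62 (standard error 0.075, adjusted p 3.73e-06), and SSR1 was higher at 0.29 (standard error 0.061, adjusted p 0.000622), a call lost relative to its neighbours. In clone 15 SSR1 was lower at -0.59 (standard error 0.082, adjusted p 1.37e-06) and SSR4 higher at 0.21 (standard error 0.081, adjusted p 0.0375), a call lost in 10 of 18 alternative settings, and TRAM1 was -0.75 (standard error 0.084, adjusted p 5.11e-08). The higher values of SSR1 and SSR4 were added after they were seen. ER-to-Golgi transport gave 9 of 22 lower and 3 higher in clone 37, and 9 lower and 7 higher in clone 15. KDELR3, a receptor that returns escaped chaperones to the ER, was lower in both clones, at -0.63 (standard error 0.11, adjusted p 0.000118) and -0.503 (standard error 0.11, adjusted p 0.000686) in clones 37 and 15, its relative KDELR2 was -0.84 (standard error 0.086, adjusted p 1.34e-08) in clone 15, and the COPII coat gene SEC23A was -0.71 (standard error 0.066, adjusted p 9.82e-08) in clone 37.

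Among IRE1 regulators and transcripts known to be degraded by IRE1, 6 of 11 tested were lower and 2 higher in clone 37, and 6 lower and 3 higher in clone 15. Of the degraded transcripts, SPARC at -1.02 (standard error 0.0698, adjusted p 2.04e-09) and SCARA3 at -0.83 (standard error 0.15, adjusted p 0.000135) were lower in clone 37 and HGSNAT at -1.16 (standard error 0.093, adjusted p 1.71e-10) in clone 15. BLOC1S1, a further degraded transcript, named after its values were seen, was higher in clone 15 at 0.67 (standard error 0.17, adjusted p 0.00142). This call was lost relative to its neighbours (0.397), and BLOC1S1 shares 25.3% of its 75-base words with a read-through gene model. UFL1, a ligase of the UFMylation pathway, was -0.93 (standard error 0.086, adjusted p 2.49e-09) in clone 15. Of 6 ER-phagy receptors, 2 were lower and 1 higher in each clone. ATL3 was higher in clone 37 at 0.47 (standard error 0.05997, adjusted p 3.92e-06) and lower in clone 15 at -0.28 (standard error 0.081, adjusted p 0.00563), where the call was lost with GC and length trends removed (-0.0047). RETREG1 was lower in clone 37 at -0.36 (standard error 0.14, adjusted p 0.0373), a call lost in 10 of 18 alternative settings, and CCPG1 in clone 15 at -0.797 (standard error 0.14, adjusted p 5.39e-05), which shares 48.3% of its 75-base words with a read-through gene model.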

How the data were processed

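Stranded, rRNA-depleted total RNA libraries (500 ng of RNA, 13 cycles) were sequenced as paired reads of 75 bases (parental, clone 37) or 100 bases (clone 15), per the labels' protocols. The deposited files hold raw read counts per gene. The submitters' processing notes name FastQC 0.11.9, STAR 2.7.10a and hg38, and the annotation release is not given in the sources used here. Each file has 4 summary entries, which were left out, and 3 count columns. The column of the kit's strand (the fourth), which held 92.63% to 93.96% of stranded counts, was used. Of the 60683 identifiers, 60370 had a symbol in a list of gene names and 58496 were in GENCODE 29. Gene positions, transcript lengths and shared words of 75 bases came from GENCODE 29 on GRCh38.

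Each comparison was fitted on its 6 libraries with edgeR 4.0.16 (R 4.3.3): filterByExpr, TMM, robust quasi-likelihood test, Benjamini-Hochberg over all genes, called at an adjusted p below 0.05. CPM are counts scaled to the library's total over genes, without TMM. A count of genes whose groups do not overlap is a description. Nothing in the labels says whether replicates are separate cultures, so p-values measure the spread between these libraries. The TMM and robust quasi-likelihood steps, but not the alternative settings, were run separately on simulated counts with known fold changes. Members and lists were chosen with earlier results of these data known. Library values are given for HSPA5, for up to 5 genes per role with the largest called change and a mean of at least 5 CPM, and for members called in opposite directions; from each other list, the largest 2 called genes per contrast with parental, again with a mean of at least 5 CPM, are named. The promoter windows and genes counted as examples of neighbourhood or GC were picked after their values were seen. Alternatives were another normalization (RLE), DESeq2 1.42.0, other filters, unstranded counts, a replicate block, 1 fit of all 9 libraries, protein-coding genes, thinned counts, trends over GC and length removed, change relative to 100 chromosome neighbours, each library left out and, added after seeing the data, library totals without TMM.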

Additional observations from a re-analysis of the deposited data

Results flagged for a closer look

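A direct test of clone 37 against clone 15 (edgeR, adjusted over all genes) called a difference for 30 of 40 members, beside 57.7% of all genes. Read length differs in the same way as the clones and its part cannot be told apart. Among sensors, factors and proteases, the log2 fold changes were -0.96 for CREB3L2, -0.81 for WFS1, -0.43 for ATF6B, -0.32 for XBP1, 0.16 for ATF6, 0.24 for MBTPS2 and 0.77 for MBTPS1. Among degradation genes, they were -0.57 for EDEM2, -0.48 for OS9, -0.45 for SEL1L, -0.38 for DERL3, -0.26 for SELENOS, -0.25 for SYVN1, -0.25 for EDEM1, 0.24 for HERPUD1 and 0.63 for DERL1. In the Hsp70/Hsp90 system, they were -0.76 for SDF2L1, -0.53 for CRELD2, -0.48 for DNAJB11, -0.403 for MANF, -0.13 for HYOU1, 0.24 for DNAJC3, 0.32 for DNAJC10 and 1.05 for DNAJB9. Elsewhere they were -1.23 for PDIA4, -0.68 for P4HB, -0.62 for CALR, 0.51 for CANX, -0.79 for SEC61A1 and -0.35 for SEC61B. The call of HERPUD1 was lost without clone 37 replicate 3 (0.19) and turned relative to chromosome neighbours (-0.33). That of DERL3 was lost in 5 of 18 settings, among them without clone 37 replicate 2 (-0.33). Relative to neighbours, the calls of DERL1, DNAJB11, SYVN1, SELENOS, MBTPS1, MBTPS2 and SEL1L were lost as well, and with GC and length trends removed those of DNAJC3 and MBTPS2. The calls of ATF6 and HYOU1 were each lost in 10 of 18 alternative settings, for ATF6 among them without clone 15 replicate 2 (0.0598). Groups of 3 libraries are too small for a test of single outlying libraries.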

How the results depend on the processing

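The fitted log2 fold changes, the counts of calls and the members' medians were recomputed under 18 alternative settings. Marker sums, the order of levels, motif counts, counts of groups that do not overlap and the correlations with neighbours were not. The counts of members called lower stayed within 1.5 times of their value in each of the 3 comparisons under each setting, and so did the counts of genes called. The call held in all settings for 15 of 26 called members in clone 37, 11 of 31 in clone 15 and 18 of 30 between the clones. In clone 37, 1 member was called higher with unstranded counts (21% of all genes) and 1 against neighbours (20.2%). Leaving out 1 library gave 1 to 7, beside 3326 of 16783 to 4893 of 16870 genes called higher, and medians of -0.36 to -0.201. In clone 15, 7 members were higher with unstranded counts (21.5% of all genes, median -0.29) and 2 against neighbours (19.9%, median -0.068), the median was -0.057 with GC and length trends removed, and leaving out 1 library gave medians of -0.28 to -0.11. Between the clones the median was -0.067 against neighbours.

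Several log2 fold changes turned sign, among those printed in the text. Against neighbours, clone 37 gave 0.0043 for DNAJB9, 0.39 for DNAJC3, 0.070 for DNAJC10, -0.20 for CALR, -0.15 for CANX, -0.093 for PDIA3, -0.14 for MBTPS1, -0.11 for SEC61B, -0.0041 for SSR1, 0.072 for DNAJB11, -0.014 for SIL1 and -0.029 for SELENOS. Clone 15 gave -0.078 for PDIA3, -0.030 for P4HB, -0.028 for ATF6B, -0.12 for SYVN1, -0.058 for EDEM2, 0.00051 for DERL1, -0.057 for SEC61A1 and -0.39 for DERL2. Between the clones the values were -0.032 for MBTPS1, -0.011 for MBTPS2, 0.0038 for SEL1L, 0.055 for DERL2, 0.23 for ERO1A and -0.33 for HERPUD1. Of these values against neighbours, DNAJC3, CALR and MBTPS1 in clone 37, DERL2 in clone 15 and ERO1A and HERPUD1 between the clones were calls, and the others were not. With GC and length trends removed they were -0.12 for SEC61B in clone 37, -0.059 for MANF, -0.066 for CRELD2, -0.026 for PDIA4 and 0.055 for SEL1L in clone 15, and -0.038 for HSP90B1 and -0.030 for MBTPS2 between the clones. Unstranded counts gave -0.011 for CRELD2 and -0.070 for PDIA3 in clone 15. Leaving out 1 library gave -0.27 to 0.051 for DNAJB9 and -0.016 to 0.13 for SEC61B in clone 37, -0.027 to 0.12 for PDIA3 in clone 15, and -0.096 to 0.0023 for HSPA5 between the clones. DERL2 was 0.034 with GC and length trends removed and 0.0042 with library totals in clone 37, and -0.075 to 0.033 in clone 37 and -0.0058 to 0.14 in clone 15 with 1 library left out. SYVN1 in clone 37 lay on either side of 0 without a call, at -0.0044 (RLE), -0.014 (DESeq2), -0.00081 (no filter), -0.015 (filter of 1 CPM), -0.0298 (unstranded), -0.016 (thinned), -0.0068 (protein-coding) and -0.15 (neighbours), and -0.048 to 0.041 with 1 library left out. For all of these the cause was not tested.

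Libraries with the same replicate number did not deviate together (correlations -0.159 to 0.0221), which cannot show whether the numbers pair libraries. Adding a replicate block lowered the biological coefficient of variation from 6.3% to 5.355% between the clones. The block raised it from 6.218% to 7.039% in clone 37 and from 8.584% to 8.753% in clone 15. With a replicate block, 2 members were higher and 23 lower in clone 37 (25% and 25.7% of all genes, 8375 called), 12 and 18 in clone 15 (24.1% and 25.1%, 8708), and 10 and 22 between the clones (29.7% and 29.5%, 10491). Among the members, under the block the calls of HYOU1 in clone 37 (0.17) and of HSPA5 (-0.24) and CANX (-0.24) in clone 15 were lost. Those of SDF2L1 in clone 15 (0.28) and, between the clones, HSP90B1 (0.11) and ERO1A (-0.13) were gained. Thinning all libraries to the smallest removed, among the members, the clone 15 call of CANX (-0.24) and the call of DERL3 between the clones (-0.33).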
